A study of Drosophila melanogaster with 7 samples.

Results

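The genes described here build the vesicles that carry cargo between the endoplasmic reticulum and the Golgi. They were chosen by name, with earlier results of these data known. The list of 31 genes covers the COPII coat, the COPI coat, their cargo receptors, the fusion machinery and the regulator CrebA. It was matched to the gene names of the deposited tables. 30 of the 31 matched, out of 17697 named genes, and Sec20, the unmatched one, was not analysed here. All 30 passed the filter on low counts. RNA was sequenced from tracheae, the airways of the larva, of Drosophila melanogaster at the third instar, in 4 control and 3 Hop.CA libraries. All 7 libraries carry 1 strain entry, which names btl-Gal4 with UAS-GFP, and UAS-Hop.CA with tub-Gal80ts, although the titles call the controls wild type. btl-Gal4 is a driver active in the trachea, Gal80ts is a repressor of Gal4 that fails at higher temperature, and Hop.CA is the form of hop, the fly JAK kinase, used to raise JAK/STAT signalling. Control larvae stayed at 18 °C, whereas Hop.CA larvae were moved from 18 °C to 29 °C at the second larval stage and sampled after 18 hours. Transgene and temperature changed together and cannot be told apart in any result below. Larval age within the third instar, which the sample titles do not give, cannot be told apart from them either. The labels call the libraries biological replicates and do not say how many animals each held.

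COPII-coated vesicles form at exit sites of the endoplasmic reticulum. The GTPase Sar1 recruits an inner layer of Sec23 and Sec24, which binds cargo, and then an outer layer of Sec13 and Sec31. COPI-coated vesicles, made by the GTPase Arf1 and a complex called coatomer, carry escaped residents and recycled receptors back from the Golgi. Tracheal cells secrete large amounts of chitin-modifying and matrix proteins into the airway lumen, and fly embryos that lack COPI or COPII subunits fail to fill and widen their airways.

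The targeted gene, hop, stood at 38.4, 43.3, 40.1 and 44.0 CPM in control replicates 1 to 4 and at 1444, 1593 and 1342 CPM in Hop.CA replicates 1 to 3. CPM are read counts relative to the normalised size of the library. Library sums ran from 16795748 to 20455268 reads assigned to genes. Each fold change is the log2 of Hop.CA over control with its standard error (SE). Each adjusted p is that of the quasi-likelihood test of edgeR after Benjamini-Hochberg adjustment across 9457 genes. With the labels as the only statement on separate animals, these p-values measure the spread between the libraries. A gene rose or fell where that p was under 0.05.

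Most of the vesicle transport genes were higher in Hop.CA. 26 of the 30 rose and none fell, whereas of all tested genes 31.5% changed, 16.4% higher and 15.1% lower. Because the list was drawn up with earlier results of these data known, this contrast is a description. In bulk tissue, fewer cells of a type and less RNA per cell cannot be told apart. The median log2 fold change was 0.52 over the 30 genes and -0.01 over all tested genes. The changes were small, from 1.20-fold to 1.74-fold among the called genes. In 27 of the 30, every Hop.CA library was above every control library, which held for 23.3% of all tested genes. The 4 genes that did not pass were p24-1, p24-2 and opm, of the p24 cargo receptor family, and the GTPase gene Rab1. Members were found on chromosome arms X, 2L, 2R, 3L and 3R, with 3 to 8 on each.

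**Figure D1:**
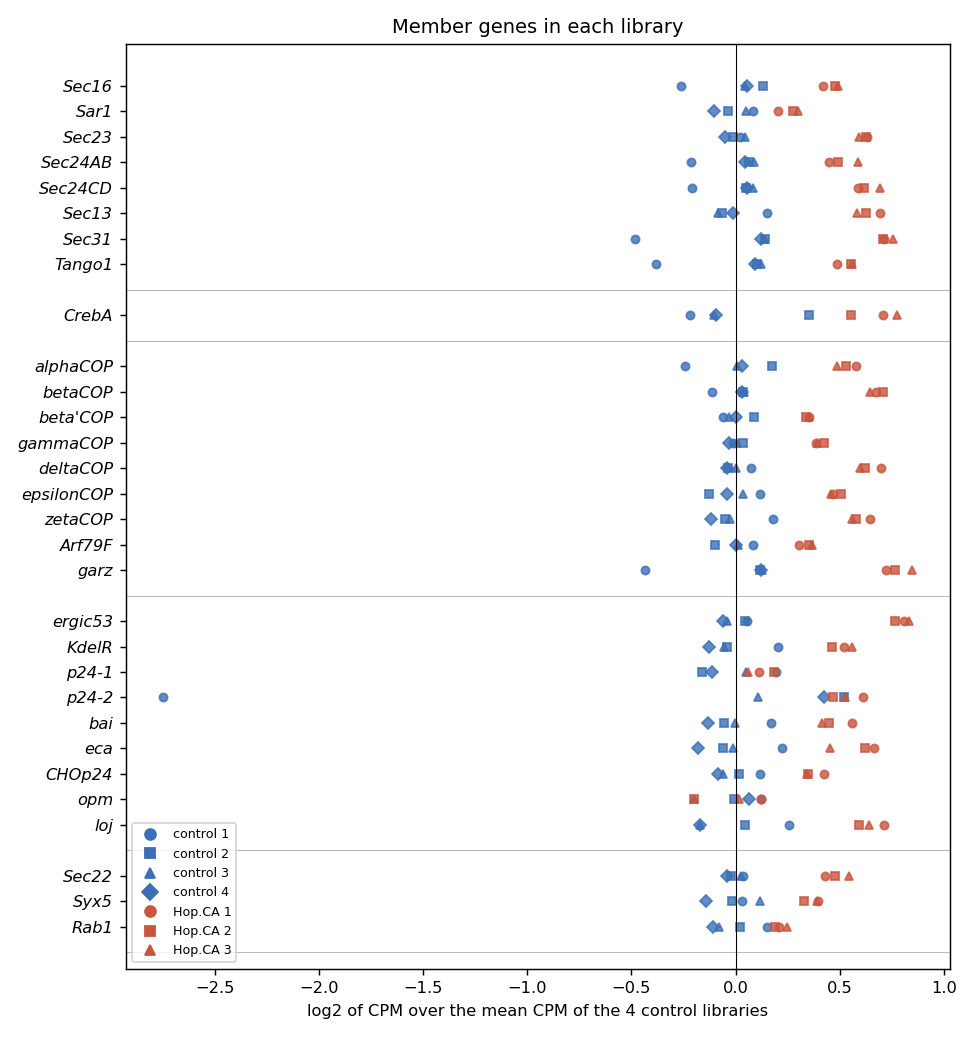
Log2 of each member's CPM over the mean CPM of the 4 control libraries (x axis), with 1 row per gene, grouped by role. Blue marks are control and red marks Hop.CA libraries, with a shape for each replicate. The marks of the 2 groups lie apart in all rows except p24-1, p24-2 and opm, and control replicate 1 lies far to the left for p24-2.

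All 8 genes of the COPII coat and its exit sites rose, with log2 fold changes of 0.26 to 0.73. Sec31, which forms the outer cage of the coat, stood at 88.9, 137, 137 and 135 CPM in control replicates 1 to 4. In Hop.CA replicates 1 to 3 it stood at 204, 203 and 210.1 CPM. The 3 Hop.CA libraries lay close together and above all controls, and control replicate 1 lay well below the other controls (log2 0.73 ± 0.151, adjusted p = 0.00993). Sec13, its partner in the cage and also a subunit of nuclear pores, was at 135, 116, 114 and 120.2 CPM in control and 196, 187 and 182 CPM in Hop.CA libraries (log2 0.63 ± 0.0800, adjusted p = 0.00149). Here control replicate 1 was the highest control, and the groups still did not overlap.

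Inner coat genes rose by similar amounts. Sec23, which activates the Sar1 GTPase, was at 235, 229.8, 239 and 224 CPM in control and 359, 358 and 349 CPM in Hop.CA libraries, a 1.53-fold difference (log2 0.62 ± 0.0653, adjusted p = 0.000824). Of the Sec24 paralogues, Sec24CD was at 146, 175, 179 and 175 CPM in control and 254, 259 and 273 CPM in Hop.CA libraries (log2 0.63 ± 0.0898, adjusted p = 0.00235). Sec24AB was at 66.8, 81.0, 82.4 and 80.1 CPM in control and 106, 109 and 116 CPM in Hop.CA libraries (log2 0.51 ± 0.0907, adjusted p = 0.00566). Both paralogues were lowest in control replicate 1 among the controls. Per exon length, Sec24CD made up 69.1% ± 0.128 (SD, n = 4) of the reads of both paralogues in control and 70.9% ± 0.221 (SD, n = 3) in Hop.CA libraries. The difference of 1.798 percentage points gave p = 0.0286 in a two-sided exact permutation test over the libraries, the smallest p that this design allows. With uniquely assigned reads only, the difference was 1.29 points and the exact permutation p was 0.0571.

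Sar1, the GTPase that starts the coat, changed little. It stood at 228, 209.6, 223 and 200 CPM in control and 248, 259.9 and 264 CPM in Hop.CA libraries (log2 0.26 ± 0.0750, adjusted p = 0.0331). Its call was lost when any 1 library other than control replicate 1 was left out, with adjusted p from 0.0625 to 0.125. Sec16, the scaffold of exit sites, was at 74.3, 97.8, 92.0 and 92.5 CPM in control and 119, 124 and 125 CPM in Hop.CA libraries (log2 0.46 ± 0.0990, adjusted p = 0.0111). Tango1, an exit site protein that helps load bulky matrix cargo, was at 67.5, 94.5, 95.8 and 93.9 CPM in control and 123, 129 and 129 CPM in Hop.CA libraries (log2 0.53 ± 0.125, adjusted p = 0.0159). Tango1 lost its call without Hop.CA replicate 3 (adjusted p = 0.0566). For both genes control replicate 1 was the lowest control.

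Each of the 7 subunit genes of coatomer rose, with log2 fold changes of 0.35 to 0.68 and a median of 0.53. betaCOP, of the adaptor-like part of the complex, was at 179, 199, 199.9 and 199 CPM in control and 310.1, 317 and 304 CPM in Hop.CA libraries (log2 0.68 ± 0.0714, adjusted p = 0.000824). deltaCOP, of the same part, was at 154, 142, 146 and 142 CPM in control and 237, 225 and 221 CPM in Hop.CA libraries (log2 0.64 ± 0.0674, adjusted p = 0.000823). In neither gene did the groups overlap. Without control replicate 1, which was the lowest control for betaCOP, the log2 fold change of betaCOP was 0.63 and those of deltaCOP and zetaCOP were 0.66 and 0.65, so the subunits have no firm order. zetaCOP, the small subunit, was at 89.4, 76.4, 77.4 and 72.8 CPM in control and 124, 118 and 116 CPM in Hop.CA libraries (log2 0.59 ± 0.0846, adjusted p = 0.00239). alphaCOP, of the cage-like part, was at 179.7, 239.8, 213 and 217 CPM in control and 318, 306 and 297 CPM in Hop.CA libraries (log2 0.53 ± 0.102, adjusted p = 0.00748). Its control libraries were spread more widely than those of the other subunits, with replicate 1 lowest and replicate 2 highest.

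The other coatomer genes rose too. epsilonCOP stood at 66.1, 55.8, 62.5 and 59.2 CPM in control and 84.4, 86.5 and 83.7 CPM in Hop.CA libraries (log2 0.48 ± 0.0760). gammaCOP was at 142, 147, 144 and 140.0 CPM in control and 187, 192 and 188 CPM in Hop.CA libraries (log2 0.40 ± 0.0607). beta'COP, a cage-like subunit that reads dilysine signals on cargo, was at 199.8, 222, 204 and 209 CPM in control and 266, 264 and 266 CPM in Hop.CA libraries (log2 0.35 ± 0.0680). All 3 passed, with adjusted p of 0.00361, 0.00301 and 0.00789 by edgeR. The ratio of betaCOP to beta'COP in deposited RPKM, a level per exon length, was 0.891 ± 0.0401 (SD, n = 4) in control and 1.12 ± 0.0313 (SD, n = 3) in Hop.CA libraries. That of deltaCOP to gammaCOP was 1.54 ± 0.0724 and 1.82 ± 0.0808. Both ratios pair a gene of larger with one of smaller fold change and were chosen after the values were seen, so they are a description, and differences between subunits were not tested.

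The GTPase that recruits coatomer and its exchange factor both rose. garz, a guanine nucleotide exchange factor for Arf1 that is needed for airway tube growth in the fly, stood at 41.9, 61.4, 61.8 and 61.6 CPM in control and 93.6, 96.2 and 102 CPM in Hop.CA libraries. Control replicate 1 was far below the other controls, which lay within 1 CPM of each other (log2 0.78 ± 0.140, adjusted p = 0.00582). Without that library the log2 fold change of garz was 0.65, below that of deltaCOP at 0.66. Arf79F, the fly Arf1, was at 638, 563, 606 and 603 CPM in control and 743, 768 and 778 CPM in Hop.CA libraries (log2 0.34 ± 0.0742, adjusted p = 0.0119). Its call was lost without Hop.CA replicate 3 (adjusted p = 0.0586).

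**Figure D2:**
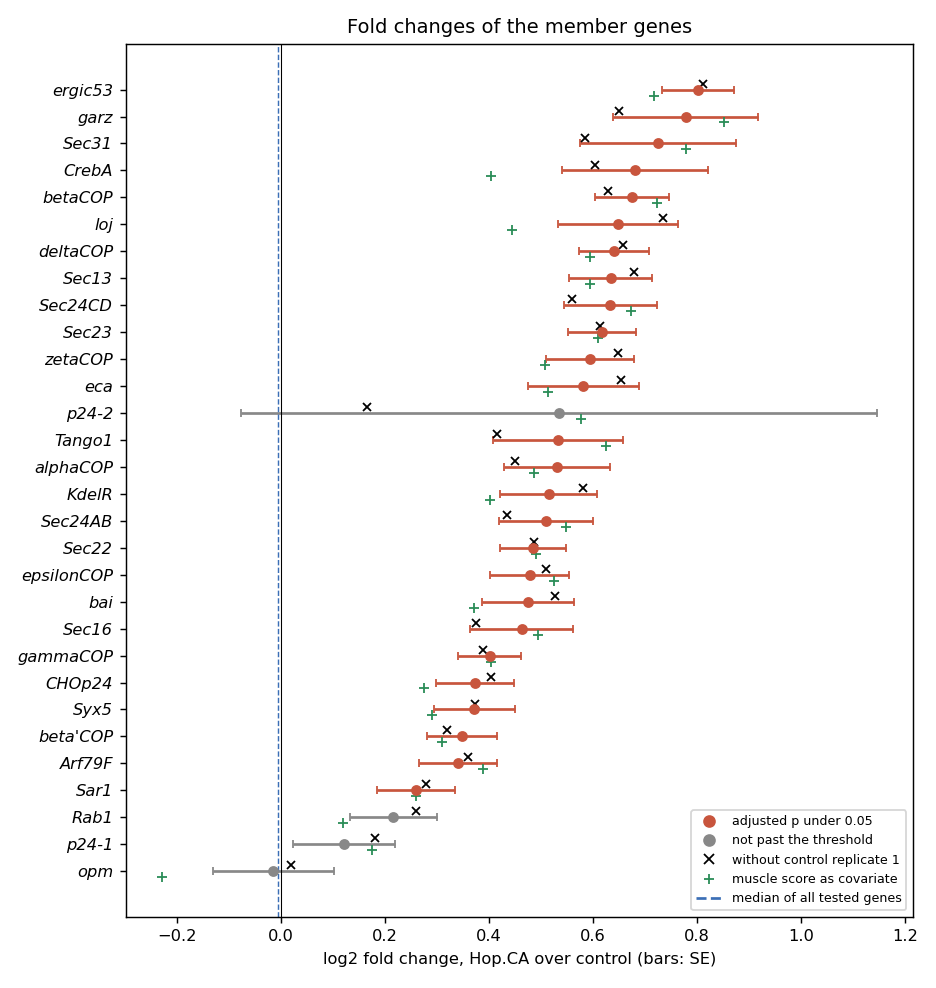
Log2 fold change of Hop.CA over control for each member (x axis) with its SE as bars, in order of size. Red points passed at adjusted p under 0.05 and grey points did not, crosses are values without control replicate 1, plus signs are values with the muscle marker score as a covariate, and the dashed line is the median of all tested genes. The 26 red points lie between 0.26 and 0.80, and p24-2 has by far the longest bar.

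Cargo receptors were divided, with 6 of 9 higher and 3 not past the threshold. ergic53 (3L, 8534977 to 8538013, plus strand, dm6) encodes a lectin that carries glycoproteins out of the endoplasmic reticulum. It stood at 267, 265, 250.0 and 246 CPM in control replicates 1 to 4 and at 449.7, 437 and 458 CPM in Hop.CA replicates 1 to 3. That is a 1.74-fold difference (log2 0.80 ± 0.0695, adjusted p = 0.000476), and the gene passed in all 7 fits that left out 1 library (adjusted p 0.000639 to 0.00433). Its fold change was the largest of the 30 genes with all libraries, but that order is not firm: without control replicate 4, for example, garz was at 0.82 and ergic53 at 0.78. KdelR, the receptor that returns escaped residents of the endoplasmic reticulum, was at 236, 199, 197 and 188 CPM in control and 294, 283 and 302 CPM in Hop.CA libraries (log2 0.51 ± 0.0935, adjusted p = 0.00607). KdelR was highest in replicate 1 among the controls.

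The p24 proteins are small membrane proteins that cycle between the endoplasmic reticulum and the Golgi and bind both coats. Of 7 p24 genes, 4 rose. loj was at 125, 108, 92.8 and 92.8 CPM in control and 171, 158 and 163 CPM in Hop.CA libraries (log2 0.65 ± 0.115, adjusted p = 0.00556). bai, whose product takes part in transport of the Dpp receptor Tkv, was at 175, 149, 155 and 142 CPM in control and 229, 211 and 207 CPM in Hop.CA libraries (log2 0.47 ± 0.0891, adjusted p = 0.00686). In both genes control replicate 1 was the highest control and no Hop.CA library fell to its level.

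eca and CHOp24 also rose, but many of their reads were not assigned to them alone. eca was at 118, 96.9, 100.1 and 89.2 CPM in control and 160.0, 155 and 138 CPM in Hop.CA libraries (log2 0.58 ± 0.107, adjusted p = 0.00631), with 37.5% of its reads unique. Counting unique reads only, its log2 fold change was 0.59 (adjusted p = 0.00554). CHOp24 was at 171, 159.8, 152 and 149 CPM in control and 212, 201 and 199.9 CPM in Hop.CA libraries (log2 0.37 ± 0.0747, adjusted p = 0.00864), with 7.98% unique. With unique reads CHOp24 had a log2 fold change of 0.42 and did not pass (adjusted p = 0.0581).

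The other p24 genes did not pass. p24-1 was at 130.1, 102, 118 and 105 CPM in control and 123, 129 and 119 CPM in Hop.CA libraries, and the groups overlapped (log2 0.12 ± 0.0980, adjusted p = 0.376). opm was at 13.5, 12.4, 10.8 and 13.0 CPM in control and 13.5, 10.8 and 12.6 CPM in Hop.CA libraries (log2 -0.01 ± 0.117, adjusted p = 0.937). Those 2 genes were not past the threshold in any of 21 alternative fits. p24-2 (3R, 9687402 to 9692794, minus strand, dm6), a close neighbour of eca, overlaps Unc-115b on the same strand and had no unique read in any library. It was listed at 5.58, 53.7, 40.3 and 50.3 CPM in control and 57.3, 51.8 and 53.9 CPM in Hop.CA libraries (log2 0.53 ± 0.612, adjusted p = 0.538). Without control replicate 1 its log2 fold change was 0.17 (adjusted p = 0.280), and the reads of p24-2 cannot be told apart from those of other genes.

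Among the genes of vesicle tethering and fusion, both SNAREs rose and Rab1 did not pass. SNAREs are the proteins that fuse a vesicle with its target membrane. Sec22, the vesicle SNARE, was at 93.8, 90.1, 93.2 and 89.0 CPM in control and 123, 127 and 133 CPM in Hop.CA libraries (log2 0.48 ± 0.0632, adjusted p = 0.00171). Syx5, its partner on the Golgi membrane, was at 69.4, 67.2, 73.7 and 61.6 CPM in control and 89.4, 85.2 and 89.1 CPM in Hop.CA libraries (log2 0.37 ± 0.0779, adjusted p = 0.0103). Rab1, the GTPase that recruits tethers to these vesicles, was at 324, 296, 277 and 271 CPM in control and 337, 334 and 347 CPM in Hop.CA libraries (log2 0.22 ± 0.0840, adjusted p = 0.0846). Its groups did not overlap, by a margin smaller than the spread within control. Rab1 passed without control replicate 1 (log2 0.26, adjusted p = 0.0179) and with unique reads, which were 37.2% of its reads (log2 0.27, adjusted p = 0.0467).

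CrebA encodes a bZIP transcription factor that activates secretory pathway genes, COPII and COPI genes among them, in secretory organs of the fly. It was at 50.2, 74.6, 54.4 and 54.7 CPM in control and 95.5, 85.8 and 99.9 CPM in Hop.CA libraries. All 3 Hop.CA libraries were above all controls, and control replicate 2 lay between the other controls and the Hop.CA libraries (log2 0.68 ± 0.140, adjusted p = 0.00960). Without control replicate 1 the log2 fold change of CrebA was 0.60 (adjusted p = 0.0204).

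Levels per exon length differed widely among the members. In deposited RPKM, Arf79F had the highest group means, at 244 ± 8.63 (SD, n = 4) in control and 307 ± 9.87 (SD, n = 3) in Hop.CA libraries, and bai and Rab1 followed. bai was at 191 ± 13.1 and 264 ± 18.7 RPKM, and Rab1 at 160.3 ± 10.6 and 185 ± 8.42 RPKM. Only 37.2% of the reads of Rab1 were unique, so its place rests in part on reads not assigned to it alone. opm had the lowest, at 8.08 ± 0.719 and 7.98 ± 1.11 RPKM, next to garz at 8.13 ± 1.55 and 13.8 ± 0.799, which in control did not differ from opm beyond its spread. By group means, ergic53 moved from the eighth place in control, at 104 ± 3.66 RPKM, to the fourth in Hop.CA libraries, at 180.2 ± 9.40 RPKM. These exact places are not firm: eca, at 106 ± 10.3 RPKM in control, and CHOp24, at 172 ± 9.24 RPKM in Hop.CA libraries, lay within the spread. RPKM are not scaled by the normalised library size, so they serve here to rank genes within a library.

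Levels of the coatomer subunits were as follows. In control they lay between 43.5 ± 1.43 RPKM for gammaCOP and 67.8 ± 4.31 RPKM for beta'COP. In Hop.CA they lay between 57.2 ± 0.884 RPKM for gammaCOP and 104 ± 5.72 RPKM for deltaCOP. In control, beta'COP, deltaCOP and zetaCOP did not differ from each other beyond their SD, and neither did betaCOP and zetaCOP in Hop.CA libraries, at 95.8 ± 1.60 and 95.8 ± 5.16 RPKM. Among the COPII genes, Sar1 was at 116 ± 4.95 and Sec23 at 80.02 ± 1.804 RPKM in control, whereas Tango1 was at 18.7 ± 3.19, Sec24AB at 15.6 ± 1.74 and Sec16 at 9.07 ± 1.18 RPKM. Of the cage partners, Sec13 was at 66.7 ± 3.92 and Sec31 at 29.9 ± 6.16 RPKM in control, and at 103 ± 5.50 and 49.1 ± 2.10 RPKM in Hop.CA libraries. Their ratio overlapped between the groups.

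**Figure D3:**
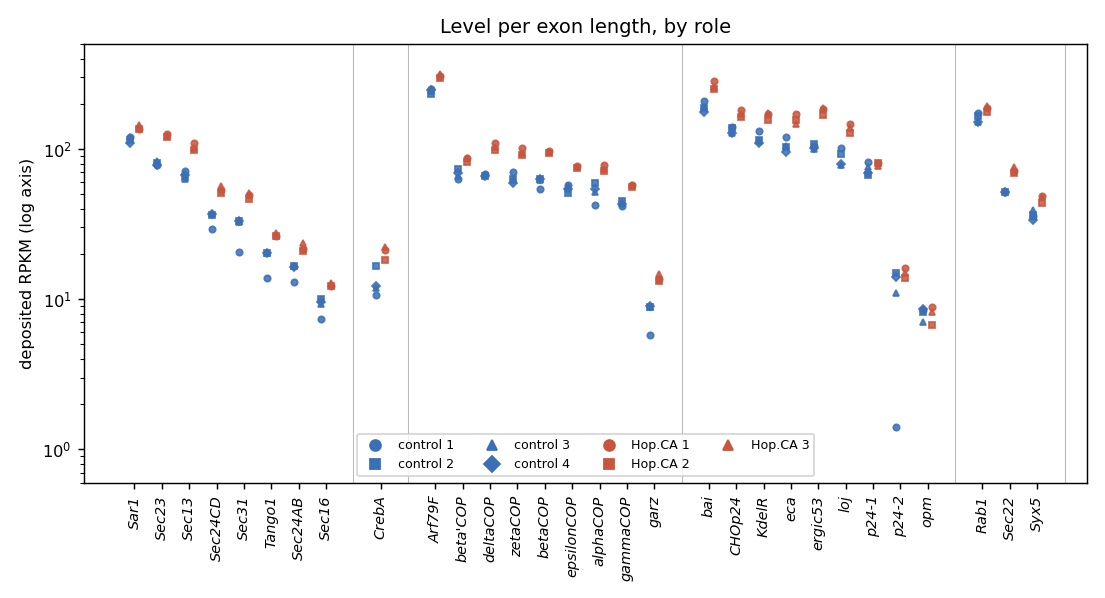
Deposited RPKM of each member in each library (log axis), grouped by role and ordered by the control mean within a role. Blue marks are control and red marks Hop.CA libraries. Arf79F is the highest gene in both groups, opm is the lowest gene in the Hop.CA libraries, and the 7 coatomer subunits lie close together.

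Reads that span splice junctions gave higher values in Hop.CA too. 22 of the 30 members had at least 50 such reads in every library, and in all 22 every Hop.CA library was above every control library. That held for 25.4% of 2607 tested genes with as many junction reads. The members left out were CrebA, alphaCOP, KdelR, epsilonCOP, Syx5, p24-1, p24-2 and opm. With fewer reads, CrebA, alphaCOP and KdelR were also higher in every Hop.CA library. Junction reads of Syx5, p24-1 and p24-2 overlapped between the groups. opm had at most 1 such read in a library, too few to compare, and epsilonCOP, listed with 1 exon, had none. Log2 ratios of the group means of junction CPM ran from 0.24 for Sar1 to 0.88 for garz, and ergic53 was at 0.83. These reads are a part of the gene counts, not a separate measurement.

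Control replicate 1 was low in long transcripts, and this touched the long members. Over 1456 expressed genes with at least 4 kb of exons, its median log2 ratio to the other controls was -0.39, and over 621 genes under 1 kb it was 0.25. The other controls lay at 0.07 to 0.17 over the long genes. All 8 members of at least 4 kb, which are Sec16, garz, Sec24AB, Sec24CD, Tango1, CrebA, Sec31 and alphaCOP, were below the other controls in it, with a median of -0.33. The 14 members under 2 kb had a median of 0.21. Without this library 27 of 30 members rose, against 18.7% of all tested genes. Fold changes then were 0.58 for Sec31, 0.42 for Tango1 and 0.38 for Sec16, lower than with it, and 0.74 for loj, 0.58 for KdelR and 0.65 for zetaCOP, higher than with it. With an offset for each library's trend over exon length, a choice made after seeing the data, 27 members rose and none fell, against 20.5% of all tested genes called higher. RNA quality was not measured in the files and its part was not tested.

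**Figure D4:**
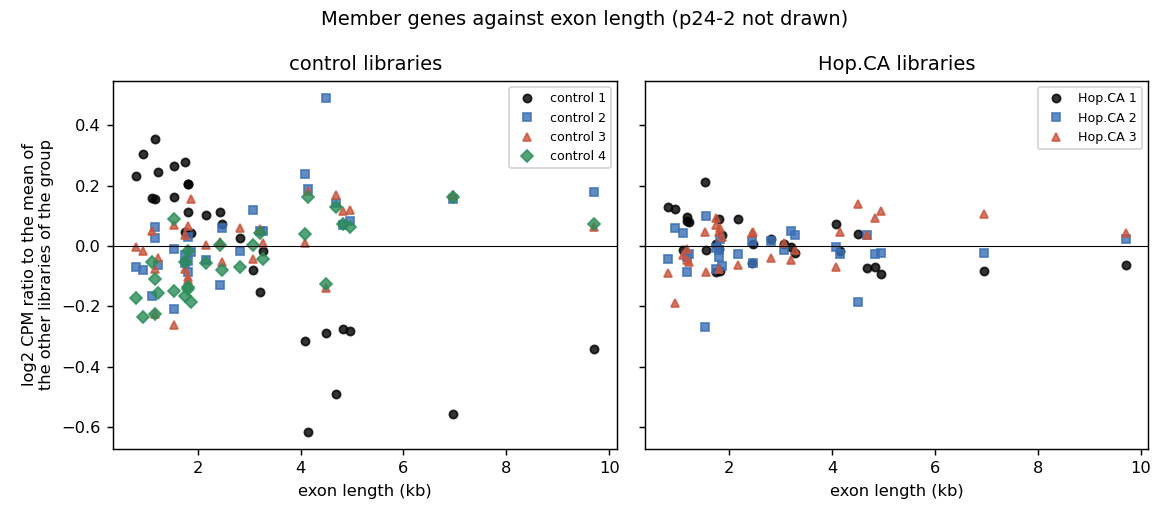
Log2 ratio of each member's CPM in a library to the mean of the other libraries of its group (y axis) against exon length in kb (x axis), for control (left) and Hop.CA (right) libraries. Control replicate 1, in black, lies above 0 for short and below 0 for long members, with 8 of 8 long ones below. In the Hop.CA libraries the medians of the long members lie between -0.07 and 0.07. p24-2 is not drawn because its value in control replicate 1 would stretch the axis.

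Marker genes of other tissues differed between the groups as well. Tracheal markers were present in all libraries, with a summed level of 10544 to 11355 CPM in control and 15519.5 to 16311 CPM in Hop.CA libraries over 9 genes. Of these, trh, serp and verm rose (log2 0.48, 0.74 and 0.58) and btl, which encodes the tracheal FGF receptor, fell (log2 -0.63). Without passing, Gasp, uif and Osi17 were lower and knk was higher in every Hop.CA library than in any control. Thus 4 of the 9 genes lay apart higher and 4 apart lower, and the median log2 fold change was 0.11. serp and verm encode chitin deacetylases secreted into the airway lumen, and they make up most of that sum. Summed muscle markers, 12 genes, ran over 9471 to 20063 CPM in control and 3187 to 9860.4 CPM in Hop.CA libraries, and 6 of 11 tested fell. Summed imaginal disc markers, 9 genes, ran over 174 to 283 and 109 to 147 CPM, and 6 fell. Much of that sum was hth, at 97.7 to 158 CPM in control and 77.7 to 102 CPM in Hop.CA libraries. hth did not pass (log2 -0.42) and its groups overlapped. The median log2 fold change of the 9 disc markers was -1.27, so the sum shows a smaller difference than most of them. No marker of fat body (7 genes) or hemocytes (7 genes) passed, with sums of 1800.2 to 6500.2 and 2289 to 4450.2 CPM for fat body and 464 to 554 and 413 to 703 CPM for hemocytes. Summed ring gland markers, 6 genes, were at 103 CPM in control replicate 2 and at 14.6 to 20.3 CPM in the other libraries, and salivary gland glue genes, 6 genes, summed to at most 3.86 CPM. Of 5 tested ring gland markers 1 fell. No defining marker was at 0 in every library.

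The members were also higher in the Hop.CA library with the most muscle RNA. Hop.CA replicate 2 had 9860.4 CPM of muscle markers, just above the lowest control at 9471 CPM. In this 1 library 5 of the 11 tested muscle markers were below every control: Mlc2, sls, wupA, TpnC73F and Tm2. The other 6, Mhc and Act57B among them, lay within the control range. The median of the 30 members over their control mean was log2 0.50 in Hop.CA replicate 2. In Hop.CA replicates 1 and 3, with 3187 and 4292 CPM of muscle markers, it was 0.54 and 0.53. The control libraries lay at -0.04 to 0.04. With the muscle marker score as a covariate, the median log2 fold change of the members was 0.49 in place of 0.52, while 7 members passed, against 4.02% of all tested genes called higher. Those 7 were Sec23, Sec24CD, Sec13, betaCOP, deltaCOP, ergic53 and Sec22. CrebA, at 0.40 in place of 0.68 (adjusted p = 0.257), and loj, at 0.44 in place of 0.65 (adjusted p = 0.162), were among those that did not. The muscle score was mostly lower in the Hop.CA libraries, so the covariate fit cannot fully separate muscle content from group. The part of disc tissue in the members' values was not tested.

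**Figure D5:**
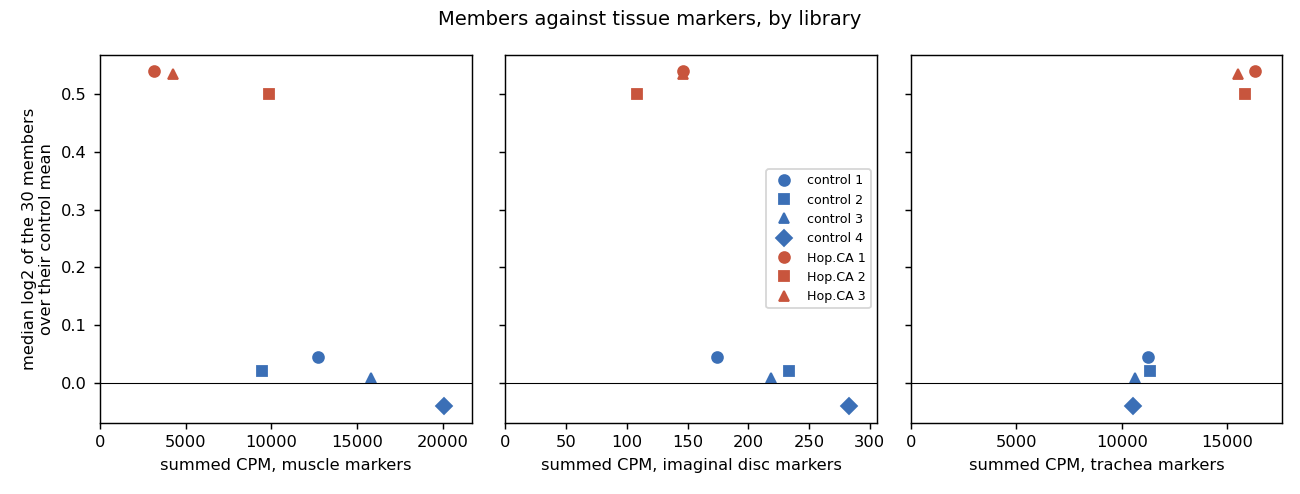
Median log2 of the 30 members over their control mean (y axis) against the summed CPM of muscle, imaginal disc and tracheal markers (x axes) in each library. Hop.CA libraries, in red, lie at 0.50 to 0.54 and control libraries, in blue, near 0. On the muscle axis Hop.CA replicate 2 lies just above the lowest control, whereas on the other axes the groups are apart. Much of the imaginal disc sum is hth, which did not pass.

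A wider list of membrane transport and related genes was drawn up by role, and 54 of 62 matched a row. Some of them act outside the step between the endoplasmic reticulum and the Golgi. 23 of the 54 rose and 3 fell, with a median log2 fold change of 0.23, beside the 16.4% and 15.1% of all tested genes called higher and lower. Of 11 Arf and Rab regulators 4 rose and 1 fell. Rich, a subunit of the exchange factor of Rab6, was at 28.8, 35.8, 35.8 and 38.0 CPM in control and 69.1, 71.8 and 74.2 CPM in Hop.CA libraries (log2 1.05 ± 0.101, adjusted p = 0.000591). ArfGAP1, which switches Arf1 off and thereby acts on the COPI coat, was at 56.9, 51.8, 55.3 and 56.4 CPM in control and 92.4, 107 and 103 CPM in Hop.CA libraries (log2 0.87 ± 0.0767, adjusted p = 0.000490). Both were higher in every Hop.CA library than in any control. ArfGAP3 (log2 0.51 ± 0.0610) and the exchange factor gene Sec71 (log2 0.40 ± 0.105) rose as well. Sec71 lost its call without Hop.CA replicate 2 or 3 (adjusted p 0.0640 and 0.0838).

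Of 17 genes listed as tethers between the endoplasmic reticulum and the Golgi, 6 rose and 11 did not pass. GM130, a Golgi matrix protein, was at 46.4, 49.1, 49.9 and 49.3 CPM in control and 84.2, 79.2 and 81.8 CPM in Hop.CA libraries (log2 0.75 ± 0.0641, adjusted p = 0.000460). Its partner Grasp65 (log2 0.53 ± 0.0665), the tether p115 (log2 0.58 ± 0.0719) and the golgin lva (log2 0.51 ± 0.126) rose with it, and lva lost its call without Hop.CA replicate 3 (adjusted p = 0.0674). Of 8 listed subunits of the COG complex, a tether within the Golgi, only 3 matched a row. All 3 rose: Cog7 by log2 0.53 ± 0.0990, Cog3 by 0.40 ± 0.0807 and Cog1 by 0.38 ± 0.0723. Of 16 SNAREs and fusion genes 8 rose and 2 fell. Bet1 (log2 0.59 ± 0.0898) and Membrin (log2 0.46 ± 0.100), which act with Sec22 and Syx5, rose, as did Syx16 of the late Golgi (log2 0.46 ± 0.0828). comt, which encodes an NSF ATPase that takes SNARE complexes apart, fell from 8.21, 8.20, 9.58 and 9.23 CPM in control to 3.86, 4.37 and 3.28 CPM in Hop.CA libraries (log2 -1.20 ± 0.148, adjusted p = 0.00142). With the muscle marker score as a covariate comt did not pass (log2 -0.94, adjusted p = 0.0517), and the 6 listed genes that did, Rich, ArfGAP1, ArfGAP3, GM130, Grasp65 and Tango14, were all higher. Use1 (log2 -0.40 ± 0.102) and Rab18 (log2 -0.39 ± 0.102) fell too, and both were named after their values were seen. Their calls were lost in all 3 fits that left out a Hop.CA library (adjusted p 0.0641 to 0.0782 for Use1 and 0.0550 to 0.0881 for Rab18), and Rab18 also without control replicate 3 (0.0554). The last 7 genes were grouped as other cargo export, a loose heading that not all of them fit. Of these 2 rose, Tango14 (log2 0.68 ± 0.0636) and the cargo receptor gene Surf4 (log2 0.35 ± 0.0826). Surf4 lost its call without control replicate 3, Hop.CA replicate 2 or Hop.CA replicate 3 (adjusted p 0.0515 to 0.0689).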

How the data were processed

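The 7 libraries of tracheal RNA came from a TruSeq stranded kit, per the labels' protocols. The submitters' processing notes name cutadapt 1.8.1 and the build dm6. An aligner, a counting program and the use of strand are not stated, hence not given in the sources used here. For each library the authors deposited raw read counts of every gene (all, unique, exonic, junction and intronic) and, per the file headers, RPKM values with exon lengths. 1 unnamed row was left out. Start and end of all 30 members equal those of a gene in the Ensembl annotation of dm6, so builds match. Between 9.07% and 10.7% of reads per library were not unique. No 2 libraries matched within sampling noise (lowest chi-square per degree of freedom 20.6).

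Total gene reads were tested with edgeR 4.0.16 in R 4.3.3 (filterByExpr, TMM scaling, robust quasi-likelihood, group as the only term, all 7 libraries), with Benjamini-Hochberg adjustment over the 9457 genes that passed. SE is |log2 fold change| divided by the root of the F statistic. The fit was tested on simulated data. Alternatives used DESeq2 1.42.0, limma 3.58.1 and the settings named in the closing section; the length offset was added after seeing the data. Figures were drawn with matplotlib 3.10.9. All members are named, and of the wider list up to 4 called genes per role of largest change whose mean log2 CPM reached 1. The members and lists were chosen with earlier results of these data known. Promoter and protein sequences were not used here, so the search for motifs in promoters was not run.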

Additional observations from a re-analysis of the deposited data

Results flagged for a closer look

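Among the 4 control libraries, 7 of 50 genes and ratios examined had 1 library far from the other 3, by Dixon's criterion at the 95% level; chance flags about 1 in 20 groups. Control replicate 1 was the lowest for 6 members: Sec24AB at 66.8 CPM, Sec24CD at 146 CPM, Sec31 at 88.9 CPM, Tango1 at 67.5 CPM, betaCOP at 179 CPM and garz at 41.9 CPM. Of these, 5 have at least 4 kb of exons, the length at which this library was low across all genes. Cog7 was highest in control replicate 2, at 29.5 CPM.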

How the results depend on the processing

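Against 26 called members, 25 or 26 were called under RLE or plain library size scaling, other filters, DESeq2, limma-voom, unique or exon reads, or without the 20 most abundant genes. The count of all genes called (2978) was 1829 without Hop.CA replicate 1, 1676 without Hop.CA replicate 3, 1573 without control replicate 2 and Hop.CA replicate 1 together, and 1312 at adjusted p under 0.01. Leaving out each library in turn gave 1676 to 3407 genes and 23 to 27 members. Without control replicate 2 and Hop.CA replicate 1 together 19 members passed, at 0.01 21 did, and the wider list went from 26 called to 15 in both. With the muscle marker score as a covariate 720 genes, 7 members and 6 of the wider list were called. With the replicate number as a block these were 938, 12 and 9; the numbers pair nothing in the labels, and deviations of same-numbered libraries correlated at -0.289, -0.439 and -0.0489. The log2 fold change of opm, -0.01, was 0.00785 with the block and -0.0876 to 0.0716 without 1 library. The Sec24CD share difference was 1.29 points with unique reads (p = 0.0571) and 1.68 to 1.91 points without 1 library, where 3 against 3 or 4 against 2 allow no exact p under 0.1 or 0.0667. The cause of these shifts was not tested.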
